A study of Mus musculus with 4 samples.

Results

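The proteasome is the protease that destroys ubiquitin-tagged proteins in the cell. Its genes were described here in RNA sequencing of mouse Th17 cells, the CD4+ helper T cells that make interleukin 17, with and without PRAK, a kinase activated by p38 and encoded by Mapkapk5. Members were all genes of the deposited table whose symbol was Psma, Psmb, Psmc, Psmd, Psme or Psmg followed by a number, which gave 47 of 17921 genes. The PRAK KO group held 2 libraries (KO 1 and KO 2) and the wild-type (WT) group held 2 libraries (WT 1 and WT 2), each from a separate mouse. In both groups naive CD4+ T cells had been enriched and polarised in culture towards Th17 cells for 72 h, and the whole culture was taken for total RNA. The labels give neither the strain, age and sex of the mice nor the part of Mapkapk5 that was deleted, and they do not describe the polarising medium.

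The proteasome is built of a barrel-shaped core, in which alpha rings guard the entrance and beta rings carry the protease sites, and of caps that bind, unfold and feed in ubiquitin-tagged proteins. The catalytic beta subunits Psmb5, Psmb6 and Psmb7 can be replaced by Psmb8, Psmb9 and Psmb10, which interferon gamma induces and lymphocytes express at rest, and the resulting immunoproteasome makes peptides suited to presentation on MHC class I. Proteasome genes are known targets of the transcription factors Nrf1 (Nfe2l1) and, under oxidative stress, Nrf2 (Nfe2l2), both of which bind antioxidant response elements, and the title of the series names NRF2.

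Mapkapk5 lies at chr5:121525051-121545892 (GRCm38.p6). It had 20.04 and 21.6 CPM (counts scaled to library size and TMM factors) in the KO libraries, against 35.6 and 38.4 CPM in the WT libraries. Both KO libraries were lower than both WT libraries, with a log2 fold change of -0.83 (SE 0.13) and an adjusted p of 0.0194 in the edgeR quasi-likelihood test, so transcript remained in the KO libraries. Leaving out WT 1 gave a log2 fold change of -0.89 and leaving out WT 2 gave -0.78. The call was lost in both fits, which take the spread between replicates from the KO libraries alone. The 4 libraries held between 19418012 and 20125124 reads assigned to genes, of which 107583 to 125751 in KO and 93797 to 99709 in WT came from the members, so that sampling noise was small for all but the lowest of them. The T cell genes Cd3e and Cd4 were expressed in all 4 libraries. Markers of other cells were also read, beside 5.14% of all genes tested that were called higher in KO (adjusted p under 0.05, edgeR quasi-likelihood test). A list of 10 myeloid genes summed to 143 and 279 CPM in KO and to 59.7 and 85.3 CPM in WT, and 6 of the 10 rose. The CD8 and NK list, with 4 of 6 genes tested and 1 higher (Nkg7), summed to 348 and 293 CPM in KO and to 55.7 and 134 CPM in WT. Most of this sum was Cd8a and Cd8b1, neither of which was called. Cd8a had 185 and 104 CPM in KO, against 11.8 and 49.1 CPM in WT. Cd8b1 had 97.6 and 77.1 CPM in KO, against 19.1 and 45.3 CPM in WT. The defining NK gene Ncr1 had 1 count in each KO library and 0 in each WT library. The 4 B cell genes summed to 71.8 and 68.2 CPM in KO and to 18.7 and 50.7 CPM in WT, with 1 higher (Ms4a1). Immune cells differ in their proteasome genes, and the part of these markers in the results that follow was not tested. In such bulk libraries fewer cells of a type and less RNA per cell cannot be told apart.

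Nearly all members were expressed at moderate to high level. Together they took up 9101 and 7730.5 TPM (the authors' level, scaled to gene length and depth) in KO 1 and KO 2, and 7199 and 6763 TPM in WT 1 and WT 2. On this scale the most abundant member in KO cells was Psme1, a subunit of an interferon-inducible activator, at 406 ± 31.1 TPM, with 347 ± 10.1 TPM in WT cells (SD, n = 2 each). In WT cells the most abundant member was the immunoproteasome subunit Psmb8, whose level was 293 ± 33.1 TPM in KO cells (rank 10) and 360 ± 19.6 TPM in WT cells (SD, n = 2 each). The 14 ordinary core subunits spanned 128 TPM (Psma5) to 402 TPM (Psmb3) as KO means, a 3.14-fold range, and 122 to 335 TPM as WT means, a 2.75-fold range. The 17 cap subunits spanned 97.4 TPM (Psmd6) to 387 TPM (Psmd8) in KO and 71.0 to 341 TPM in WT. Assembly chaperones, the activator Psme4 and Psmb10 stood lowest among the broadly expressed members, down to Psmd9 at 21.7 TPM in KO and 13.8 TPM in WT. The thymus-restricted Psmb11 (0.64 TPM in KO, 0.63 TPM in WT) and the testis-restricted Psma8 (0.33 TPM in KO, 0.61 TPM in WT) were near 0. Psma8 had 4 and 7 counts in KO and 13 and 8 counts in WT and was the 1 member removed by the filter on low counts, which left 46 members tested.

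**Figure D1:**
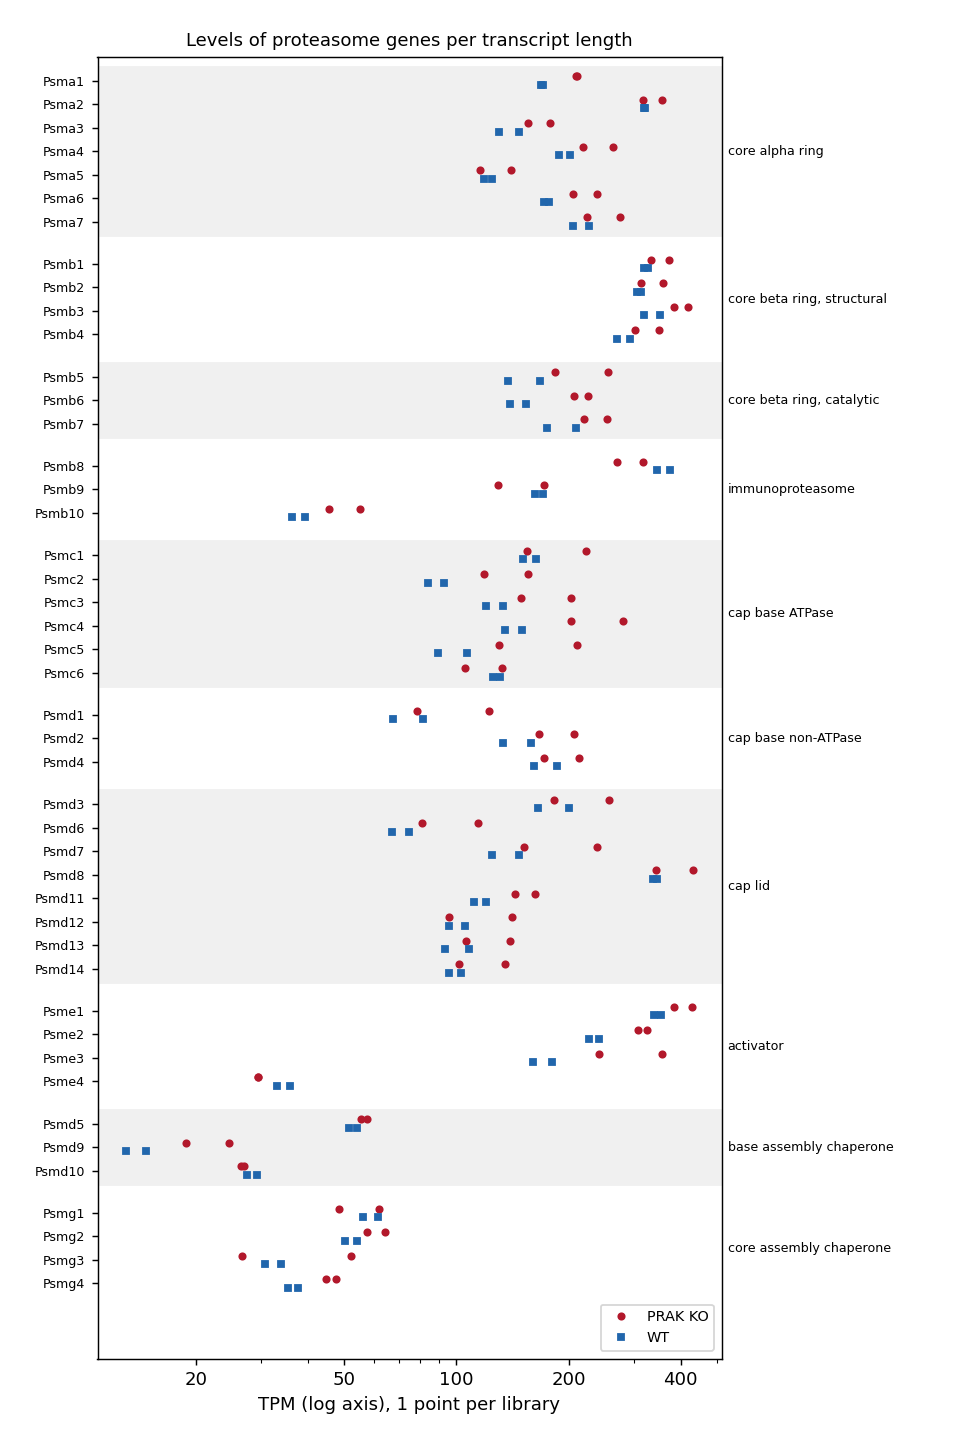
Level of each proteasome member except Psmb11 and Psma8 in TPM (log axis), ordered by role, with 1 point for each of the 2 KO and 2 WT libraries. Most core, cap and activator genes lie within a few-fold of each other and the chaperones lie lower. Psmb11 and Psma8, whose levels are near 0, are not drawn.

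Of 12680 genes tested in the whole table, 1695 (13.4%) passed the threshold (adjusted p under 0.05, edgeR quasi-likelihood test, Benjamini-Hochberg), 652 higher in KO (5.14%) and 1043 lower (8.23%). Of the 46 members, 1 passed (2.17%), namely Psmb6, which was higher, and none was lower. At an unadjusted p under 0.05, 9 members passed (19.6%) against 4014 genes (31.7%) in the table, and 7 of those 9 were higher. With all 4 libraries the share of calls among the proteasome genes was below that of the table. The count depended on the libraries: without KO 1 it was 7 higher and 2 lower (19.6% of members, against 36.1% of all genes), without KO 2 it was 24 higher and 3 lower (58.7% of members, against 46.2% of all genes, so the order of the shares turned round), and without WT 1 or WT 2 it was 0 (5.46% and 5.28% of all genes). Their fold changes leaned upwards all the same. The median log2 fold change of the members was 0.17 (quartiles 0.04 and 0.33), against 0.02 (quartiles -0.30 and 0.32) over all genes tested, and 36 of 46 members lay above 0 (78.3%), against 51.8% of the table. Part of this lean came from KO 1. Without KO 1 the median was 0.10, against 0.002 over all genes, and 28 of 46 members lay above 0. Both KO libraries exceeded both WT libraries for 23 members (50%), against 31.7% of the table. The reverse held for 4 members (8.70%), against 31.4% of the table: Psmb8, Psme4, Psmd10 and Psmc6. No member differed by 2-fold or more, which 1767 genes (13.9%) of the table did. The 95% interval of the fold change lay wholly within 2-fold for 43 of 46 members, the others being Psmc4, Psmc5 and Psme3, whose upper limits were 1.04, 1.23 and 1.16 on the log2 scale.

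**Figure D2:**
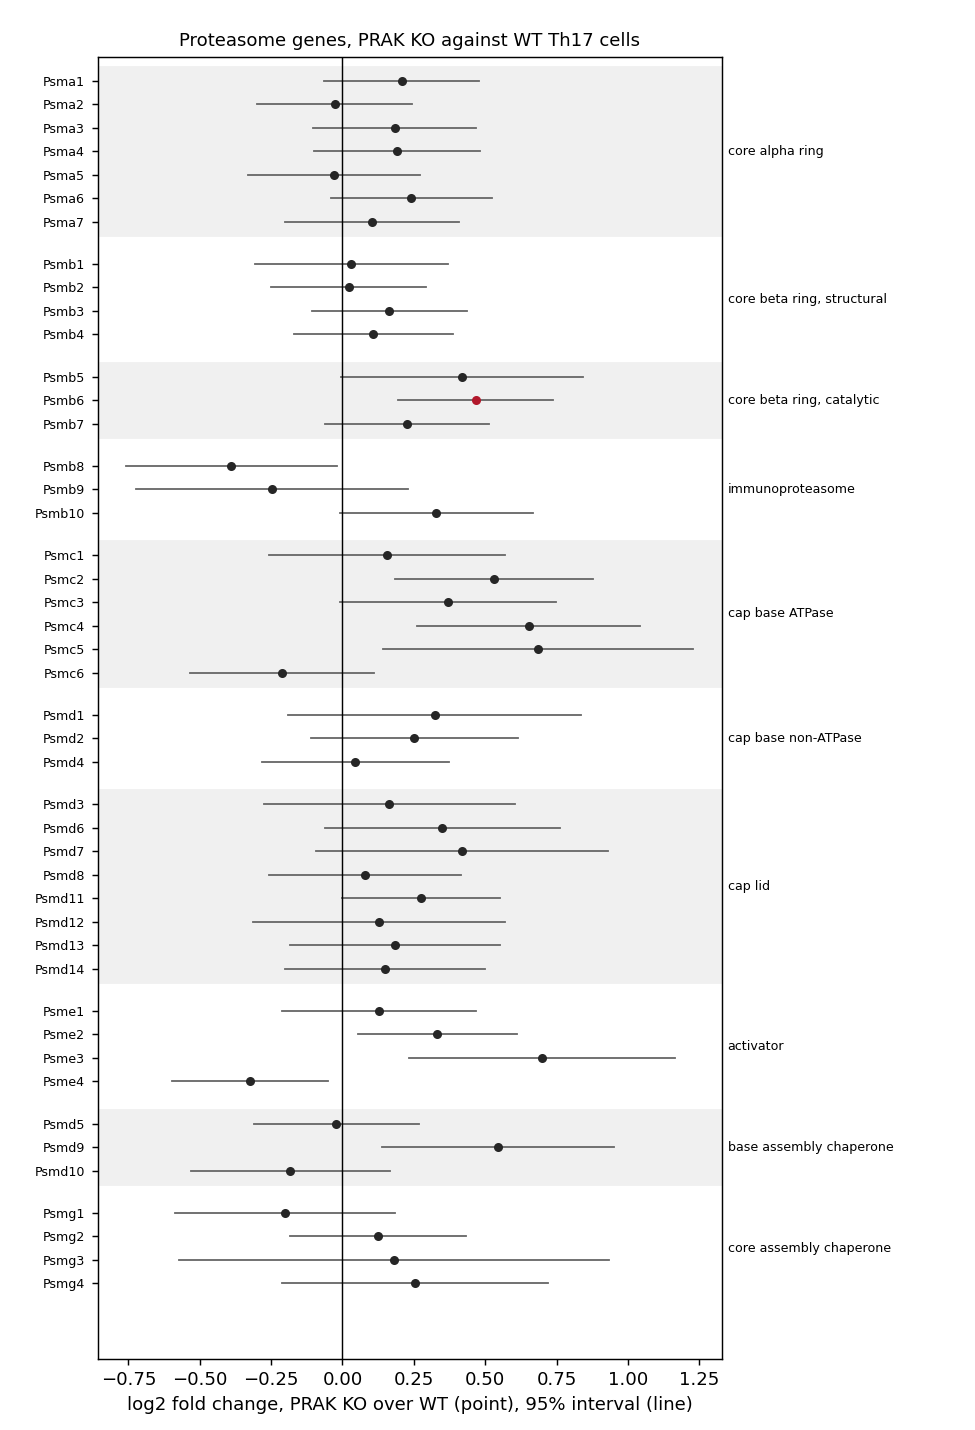
Log2 fold change, KO over WT, of each tested member except Psmb11, with its 95% interval from the edgeR quasi-likelihood fit, grouped by role. Psmb6 alone passed the threshold, and most other estimates lie to the right of 0 with intervals that reach or cross it.

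The catalytic subunits of the ordinary core lay higher in KO cells. Psmb6 (chr11:70525324-70527858), which carries the caspase-like site, had 114 and 112 CPM in KO, against 84.3 and 78.9 CPM in WT. The KO libraries lay close together and above both WT libraries. It rose by a log2 fold change of 0.47 (SE 0.11, 95% interval 0.20 to 0.74, adjusted p = 0.0477, edgeR quasi-likelihood test), with means of 113 ± 1.66 CPM in KO and 81.6 ± 3.79 CPM in WT (SD, n = 2 each). The call stood next to the threshold. The adjusted p was 0.0527 in the edgeR test with no filter on low counts and 0.0512 with limma on TPM. The call was also lost without WT 1 or WT 2, at log2 fold changes of 0.51 and 0.41. Those fits take the spread between replicates from the KO libraries alone. Psmb5 (chr14:54614120-54617995), which carries the chymotrypsin-like site, had 107 and 82.8 CPM in KO, against 76.9 and 65.1 CPM in WT. The groups did not overlap, but KO 2 stood close to WT 1, and the log2 fold change of 0.42 (SE 0.17) did not pass the test (adjusted p = 0.161) and was 0.22 without KO 1. Psmb7 (chr2:38588046-38643952), which carries the trypsin-like site, had 117 and 110.4 CPM in KO, against 102 and 92.7 CPM in WT. Its difference was the smallest of the 3 in this set, at 0.23 (SE 0.11, adjusted p = 0.241).

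The inducible partners did not share one direction. Psmb8 (chr17:34198195-34201454), which replaces Psmb5, had 162 and 203 CPM in KO, against 244 and 233 CPM in WT. Both KO libraries lay below both WT libraries, with means of 182 ± 29.1 CPM in KO and 239 ± 7.53 CPM in WT (SD, n = 2 each). The log2 fold change of -0.39 (SE 0.15, 95% interval -0.76 to -0.02) had an unadjusted p of 0.0423 and an adjusted p of 0.143 in the edgeR quasi-likelihood test, so it did not pass. It was -0.24 without KO 1 and -0.57 without KO 2. Psmb9 (chr17:34182030-34187330), which replaces Psmb6, had 51.5 and 73.6 CPM in KO, against 71.1 and 77.5 CPM in WT. KO 1 was the low library and KO 2 lay between the WT libraries, and the log2 fold change of -0.25 (SE 0.19, adjusted p = 0.424) was -0.01 without KO 1. Psmb10 (chr8:105935728-105938392), which replaces Psmb7, had 34.9 and 30.9 CPM in KO, against 26.8 and 25.6 CPM in WT. Both KO libraries were above both WT libraries, at 0.33 (SE 0.14, adjusted p = 0.165), on a low level in all 4.

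Each inducible subunit was then set beside the one it replaces. On the TPM scale Psmb8 made up 51.5% and 63.3% of the Psmb8 and Psmb5 sum in KO, against 69.0% and 71.6% in WT. Psmb9 made up 36.3% and 45.3% of the Psmb9 and Psmb6 sum in KO, against 51.5% and 55.2% in WT. Psmb10 made up 17.9% and 17.1% of its sum with Psmb7 in KO, against 15.8% and 17.1% in WT, so both KO libraries lay above both WT libraries, KO 2 by less than the last digit given. Over all 6 genes the inducible subunits held 38.2% and 46.6% in KO, against 52.1% and 55.1% in WT. Both KO libraries were thus below both WT libraries in the overall share, and KO 1 was the lowest. The log2 ratio of inducible to constitutive TPM averaged -0.44 ± 0.35 in KO and 0.21 ± 0.12 in WT (SD, n = 2 each), a difference of -0.65. By pair the difference was -0.81 for Psmb8 over Psmb5, -0.73 for Psmb9 over Psmb6 and 0.11 for Psmb10 over Psmb7. With 2 libraries against 2 a two-sided exact permutation test cannot give a p under 0.333, and these ratios are given as a description. The difference over all 6 genes was -0.40 without KO 1 and -0.90 without KO 2, so the direction did not rest on 1 KO library while the size depended on it.

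**Figure D3:**
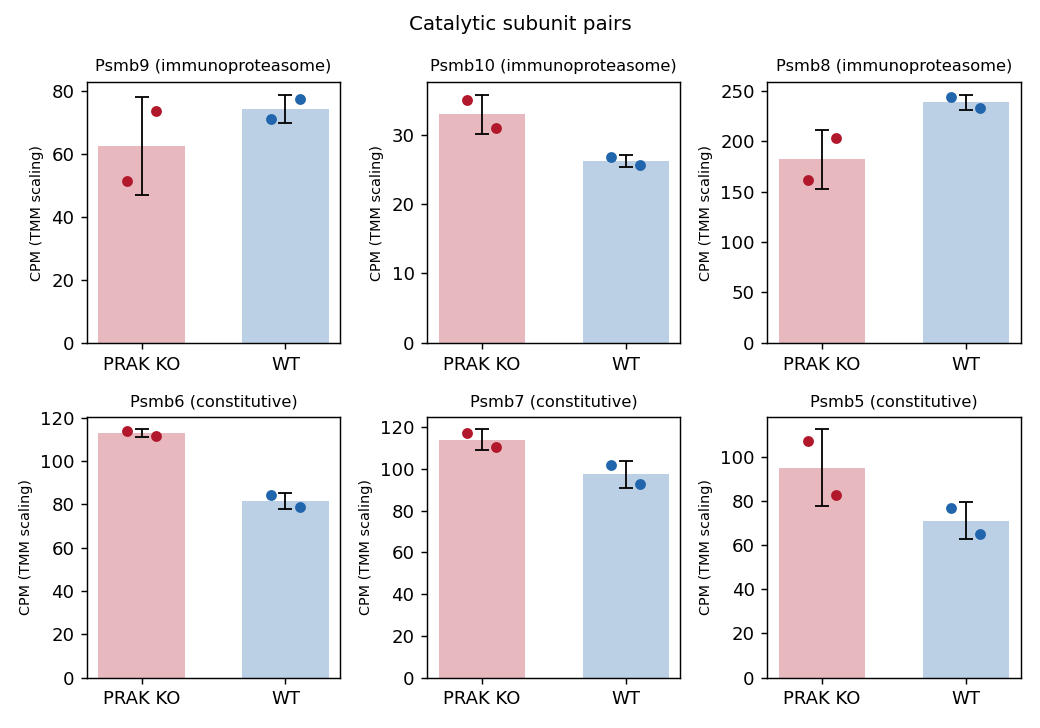
CPM of the 3 inducible catalytic subunits and of the 3 constitutive subunits they replace, with 1 point per library, KO left of WT, and bars at the group means. Psmb8 lies lower in both KO libraries and Psmb5 and Psmb6 lie higher, while Psmb10 and Psmb7 both lie higher.

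**Figure D4:**
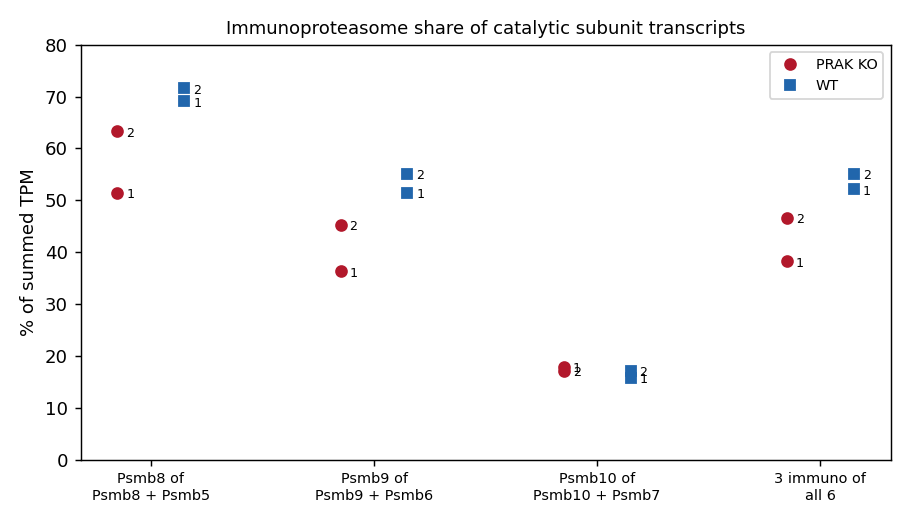
Share of inducible subunits in the TPM of each catalytic pair and of all 6 catalytic genes (percent), with 1 point per library and KO left of WT. For all 6 genes the KO libraries are at 38.2% and 46.6% and the WT libraries at 52.1% and 55.1%.

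Psmb9 and Psmb8 lie in the MHC class II region beside the peptide transporter genes Tap1 and Tap2. In order along the chromosome 225 bases separate Psmb9 from Tap1, 969 bases separate Tap1 from Psmb8, and 3024 bases separate Psmb8 from Tap2. Tap1 had 184 and 243 CPM in KO, against 222 and 244 CPM in WT, at -0.12 (adjusted p = 0.652, edgeR quasi-likelihood test). Like Psmb9, it was low in KO 1 and within the WT range in KO 2. Tap2 had 133 and 141 CPM in KO, against 123 and 113 CPM in WT, at 0.21 (adjusted p = 0.262). The 4 neighbouring genes therefore did not lean one way.

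The bases before the start sites of the catalytic genes are shown because the series title names NRF2, which binds antioxidant response elements. The RefSeq promoters of GRCm38.p6 covered 39 of the 47 members, and the 250 bases upstream of each start were searched on both strands for the antioxidant response element core TGACNNNGC. It was found in 5 of 39 members (12.8%), against 11.5% of 27025 genes: Psmb5, Psmb6, Psmd9, Psmd12 and Psmc6. The share among proteasome genes was thus near that of all genes. In Psmb6 the core ended at the last base before the start given in the promoter table, which lies 33 bases inside the gene interval given above, so the core is within that interval. In Psmb5 it lay 47 to 39 bases upstream. It lay 31 to 23 bases upstream in Psmd9, 247 to 239 in Psmd12 and 227 to 219 in Psmc6. The sequences follow with the core in capitals, 5′ to 3′ on the strand of the gene for Psmb6 (chr11:70525338-70525356, plus), Psmb5 (chr14:54618023-54618192, minus) and Psmd9 (chr5:123228149-123228177, plus), and on the minus strand, opposite to the gene, for Psmd12 (chr11:107479278-107479299) and Psmc6 (chr14:45329587-45329615).
Psmb6: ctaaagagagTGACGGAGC
Psmb5: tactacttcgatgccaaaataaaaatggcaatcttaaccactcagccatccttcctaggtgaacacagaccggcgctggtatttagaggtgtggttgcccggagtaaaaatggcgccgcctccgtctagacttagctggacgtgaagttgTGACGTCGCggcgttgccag
Psmd9: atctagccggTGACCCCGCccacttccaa
Psmd12: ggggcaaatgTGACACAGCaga
Psmc6: gagcaatgccTGACTTAGCtactggctgg

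Among the 5 genes that held this core, Psmb5, Psmb6 and Psmd9 had both KO libraries above both WT libraries. Psmd12 had overlapping groups and Psmc6 had both KO libraries below. Over all genes tested the shares above and below were 31.7% and 31.4%, and over the members they were 50% and 8.70%. A link between the match and a direction was not tested on these 5 genes. Nfe2l2, which encodes Nrf2, had 59.2 and 48.1 CPM in KO, against 60.8 and 63.1 CPM in WT, at -0.21 (adjusted p = 0.369, edgeR quasi-likelihood test). Both KO libraries were below both WT libraries, with KO 1 close to them. Nfe2l1, which encodes Nrf1, had 163 and 133 CPM in KO, against 121 and 119 CPM in WT, at 0.30 (adjusted p = 0.201). The gamma-activated site TTCNNNGAA, an element of the interferon gamma response, was found in 2 of 39 members (5.13%), Psmb8 and Psmg1, against 8.13% of all genes. It is shown for Psmb8 because that inducible gene lay lower in KO, and it lies 97 to 89 bases before the start of the gene interval, on the strand of the gene (chr17:34198088-34198116). All 29 bases printed lie within an exon of Psmb8 in the GENCODE annotation, so they are transcribed in some annotated forms.
Psmb8: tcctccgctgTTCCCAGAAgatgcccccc

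CCAAT, the box bound by NF-Y, was found in 14 members (35.9%), against 37.5% of all genes. The interferon-stimulated element half-pair, 2 copies of GAAA with 2 bases between them, was found in 3 members (7.69%), Psmd9, Psmd4 and Psmb3, against 3.46% of all genes. A match of letters is a description of these windows and not a binding site.

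The rest of the core barrel differed little. None of the 7 alpha subunits, which form the outer rings and the gate, passed the test. Their log2 fold changes had a median of 0.18, with 5 above 0 and 2 below (Psma2 and Psma5, both above 0 when scaled by library size alone), and in 4 (57.1%, against 31.7% of the table) both KO libraries exceeded both WT libraries. Psma6 stood at the upper end with 115 and 106 CPM in KO, against 90.9 and 96.8 CPM in WT, at 0.24 (adjusted p = 0.212, edgeR quasi-likelihood test). Psma5 stood at the lower end with 83.7 and 73.5 CPM in KO, against 81.0 and 79.3 CPM in WT, at -0.03 (adjusted p = 0.894). The WT libraries of Psma5 lay between the KO libraries. The 4 structural beta subunits Psmb1, Psmb2, Psmb3 and Psmb4, which have no protease site, had a median of 0.07. Among them Psmb3 had 147 and 144 CPM in KO, against 134 and 125 CPM in WT, at 0.16 (adjusted p = 0.356). Psmb2 had 147 and 137 CPM in KO, against 139 and 140.3 CPM in WT, at 0.02 (adjusted p = 0.912), with overlapping groups. Counted with the catalytic subunits, 12 of the 14 ordinary core genes lay above 0 with a median of 0.17. Their summed level was 3854 and 3427 TPM in KO, against 3163 and 2982 TPM in WT.

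The ATPases of the cap held some of the highest estimates. Psmc1 to Psmc6 form the ring that unfolds substrates and threads them into the core, and 5 of the 6 lay above 0, with a median log2 fold change of 0.45. Psmc5 had 131 and 86.9 CPM in KO, against 72.8 and 63.0 CPM in WT, at 0.69 (SE 0.22, adjusted p = 0.0975, edgeR quasi-likelihood test). Its estimate was 0.35 without KO 1 and 0.95 without KO 2. Psmc4 had 198 and 153 CPM in KO, against 116 and 107 CPM in WT, at 0.65 (SE 0.16, adjusted p = 0.0509). Both KO libraries of these genes exceeded both WT libraries, with KO 1 the highest. Psmc2 had 137 and 112 CPM in KO, against 88.9 and 83.1 CPM in WT, at 0.53 (adjusted p = 0.0638). Psmc4 and Psmc2 were picked for mention after their values were seen, because they lie just outside the threshold. Both passed in edgeR when libraries were scaled by size alone, with adjusted p of 0.0356 and 0.0407. That scaling also moved the median of all genes to 0.12. Neither passed in limma on TPM, with adjusted p of 0.0672 and 0.0781. With no filter on low counts Psmc4 was the 1 member called, at an adjusted p of 0.0462. Psmc6 went the other way, with 102 and 86.9 CPM in KO, against 106 and 113 CPM in WT, at -0.21 (adjusted p = 0.322). Within one ring whose subunits are used in equal number, the estimates thus ran from -0.21 to 0.69.

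The other cap subunits were nearer to no difference. Of the non-ATPase base subunits, Psmd1, a scaffold, had 199 and 136 CPM in KO, against 144 and 124 CPM in WT, at 0.32 (adjusted p = 0.339, edgeR quasi-likelihood test). The groups overlapped, since KO 2 lay below WT 1, and the estimate was 0.02 without KO 1. Psmd4, a ubiquitin receptor, had 140.0 and 120.3 CPM in KO, against 133 and 119 CPM in WT, at 0.05 (adjusted p = 0.844). All 8 lid subunits lay above 0 with a median of 0.17, but 4 of the 8 lay below 0 without KO 1. Both KO libraries exceeded both WT libraries in 3 of them (37.5%, against 31.7% of the table). The highest was Psmd7, a partner of the deubiquitinase Psmd14, with 188 and 128 CPM in KO, against 126 and 111 CPM in WT, at 0.42 (adjusted p = 0.230), with 0.11 without KO 1. The lowest was Psmd8, with 322 and 273 CPM in KO, against 280.3 and 283 CPM in WT, at 0.08 (adjusted p = 0.730). Psmd14 itself, which cuts the ubiquitin chain from the substrate, stood at 0.15. Taken over the 17 cap genes, 16 lay above 0 (10 without KO 1) and none passed the test. In 8 of them (47.1%, against 31.7% of the table) both KO libraries exceeded both WT libraries. Their summed level was 3367 and 2482 TPM in KO, against 2400 and 2163 TPM in WT, so KO 2 was close to WT 1.

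The activators, which open the core in place of the cap, held the highest estimate of all members (Psme3) and 1 of the 4 members with both KO libraries below both WT libraries (Psme4). Psme3, the nuclear activator, had 463 and 335 CPM in KO, against 257 and 235 CPM in WT. Its means were 399 ± 90.6 CPM in KO and 246 ± 15.3 CPM in WT (SD, n = 2 each), and the groups were well apart although the KO libraries differed by more than the WT libraries. The log2 fold change of 0.70 (SE 0.19, unadjusted p = 0.0111, adjusted p = 0.0666) did not pass the edgeR quasi-likelihood test, and was 0.44 without KO 1. It passed with library size alone in place of TMM factors (adjusted p = 0.0468) and in DESeq2 (adjusted p = 0.00541). It did not pass in limma on TPM (adjusted p = 0.0791) or in edgeR with no filter on low counts (adjusted p = 0.0602). Psme4, a large activator linked to histone degradation, had 94.8 and 102 CPM in KO, against 126 and 120.1 CPM in WT. Both KO libraries were lower than both WT libraries, at -0.32 (SE 0.11, unadjusted p = 0.0282, adjusted p = 0.112). Psme1 and Psme2 form the activator that interferon gamma induces together with the immunoproteasome. Psme2 had 142 and 143 CPM in KO, against 108 and 118 CPM in WT, at 0.33 (SE 0.11, unadjusted p = 0.0273, adjusted p = 0.109). Some of its expected counts were not whole, which leaves its value uncertain, and a near-identical copy, Psme2b, had 7.21 and 7.85 CPM in KO and 8.20 and 7.58 CPM in WT. Psme1 had 182 and 217 CPM in KO, against 176 and 189 CPM in WT, at 0.13 (adjusted p = 0.562), with overlapping groups. Psme1 and Psme2 thus did not share the lower KO values of Psmb8. The log2 ratio of their summed TPM to that of Psme3 was 0.99 and 1.61 in KO, against 1.65 and 1.89 in WT, and KO 2 was close to WT 1.

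The assembly chaperones went in both directions, 4 above 0 and 3 below (of which Psmd5 was above 0 when scaled by library size alone), and none passed the test. Psmg1 and Psmg2 act as a pair in building the alpha ring, and so do Psmg3 and Psmg4. Psmg1 had 29.6 and 24.8 CPM in KO, against 29.4 and 33.1 CPM in WT, at -0.20 (adjusted p = 0.423, edgeR quasi-likelihood test). Psmg2 had 33.2 and 31.8 CPM in KO, against 30.5 and 29.2 CPM in WT, at 0.12 (adjusted p = 0.535). The partners therefore lay on opposite sides of 0, with standard errors of 0.15 for Psmg1 and 0.12 for Psmg2. Psmg3 had 21.2 and 11.6 CPM in KO, against 14.97 and 13.96 CPM in WT, at 0.18 (SE 0.30, adjusted p = 0.721). Its KO libraries lay on either side of the WT libraries, and the estimate was -0.32 without KO 1 and 0.55 without KO 2. Psmg4 had 11.5 and 12.7 CPM in KO, against 9.49 and 10.8 CPM in WT, at 0.26 (adjusted p = 0.401).

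Psmd9, Psmd5 and Psmd10 each hold a part of the cap base during its assembly and are absent from the finished particle. Psmd9 had 31.7 and 26.0 CPM in KO, against 20.7 and 18.9 CPM in WT, at 0.55 (SE 0.16, adjusted p = 0.0846, edgeR quasi-likelihood test). Both KO libraries exceeded both WT libraries, and it was the highest estimate among the chaperones. As for Psme2, the expected counts of Psmd9 were not whole, which leaves its value uncertain. Psmd5 had 57.4 and 58.8 CPM in KO, against 56.3 and 61.6 CPM in WT, at -0.02 (adjusted p = 0.921). Psmd10, also known as gankyrin, had 19.3 and 20.1 CPM in KO, against 22.7 and 22.0 CPM in WT, at -0.18 (adjusted p = 0.421), with the groups apart.

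The KO libraries differed from each other in a way that followed role. KO 1 exceeded KO 2 in 35 of 46 members (76.1%), against 49.8% of the table, and in 17 of the 17 cap members. Relative to the WT mean the median cap member stood at 0.35 on the log2 scale in KO 1 and at 0.02 in KO 2. Over all tested members the medians were 0.27 in KO 1 and 0.10 in KO 2. The WT libraries showed a like order, WT 1 exceeding WT 2 in 32 members (69.6%, against 48.1% of the table) and in 15 of 17 cap members. KO 1 also exceeded KO 2 in 12 of the 14 ordinary core genes and in 3 of 4 core chaperones. The order was not shared by all roles, since KO 1 exceeded KO 2 in 1 of 4 activators, 1 of 3 immunoproteasome genes and 1 of 3 base chaperones. KO 2 also had the higher myeloid marker sum. The sum of 8 Th17 genes, 1 of them higher in KO (Ccr6) and 1 lower (Il23r), was 3776 and 2607 CPM in KO, against 4234 and 4091 CPM in WT. Cd4 had 516 and 939.5 CPM in KO, against 739 and 854 CPM in WT, with KO 1 the lowest library. Their part in the order of the libraries was not tested.

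**Figure D5:**
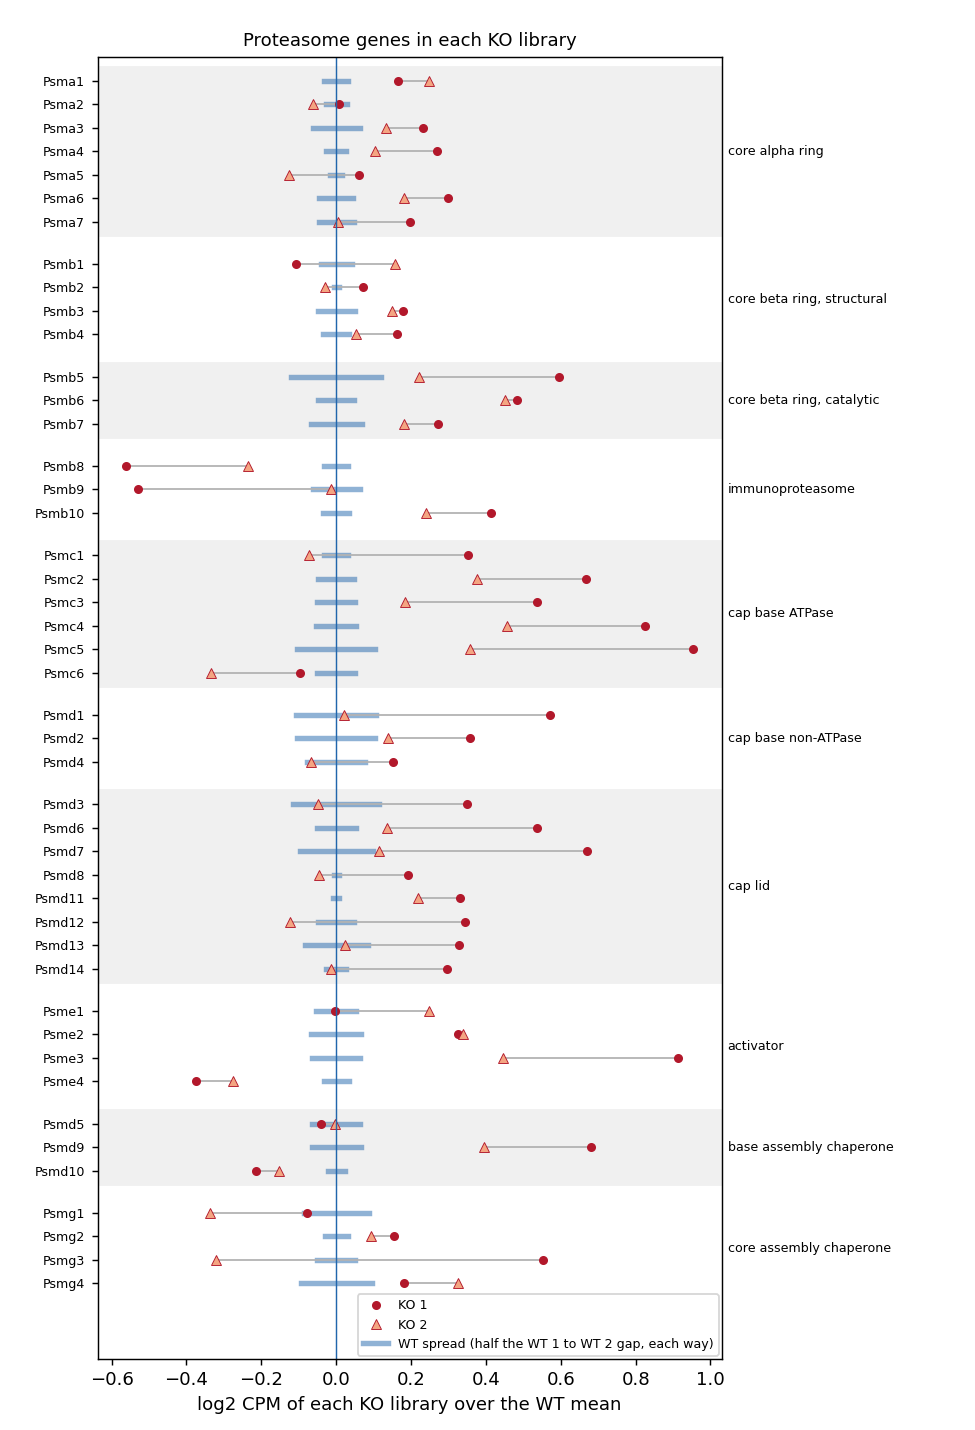
Log2 level of each tested member except Psmb11 relative to the WT mean in KO 1 and KO 2, by role. The cap members lie higher in KO 1 than in KO 2 in 17 of 17 cases, with medians of 0.35 and 0.02.

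The lists of related genes were read beside the members and beside the 13.4% of the table that was called (5.14% higher, 8.23% lower). Of 15 proteasome partners and regulators tested, none passed, and their median log2 fold change of 0.18 was near that of the members. Pomp, the chaperone that matures the core, had 162 and 152 CPM in KO, against 141 and 144.1 CPM in WT, at 0.14 (adjusted p = 0.442, edgeR quasi-likelihood test). None of the 6 ubiquitin genes passed, with a median of 0.01. Of 10 genes of peptide loading, 1 passed, with a median of 0.26. This was Erap1, the aminopeptidase that trims peptides made by the proteasome, with 83.8 and 85.2 CPM in KO, against 58.1 and 59.0 CPM in WT. It rose by 0.53 (SE 0.11, adjusted p = 0.0349, edgeR quasi-likelihood test). The call was lost without WT 1 or WT 2, where the KO libraries alone give the spread between replicates.

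Of the 7 genes of interferon gamma signalling 1 rose and 1 fell (against 5.14% and 8.23% of the table), with a median of 0.01. The cytokine gene Ifng, the inducer of the immunoproteasome, had 53.8 and 100.2 CPM in KO, against 7.999 and 9.724 CPM in WT. It rose by 3.12 on the log2 scale (adjusted p = 0.00738, edgeR quasi-likelihood test), with KO 2 the highest library. Its receptor subunit gene Ifngr2 had 63.0 and 74.4 CPM in KO, against 107 and 126 CPM in WT. It fell, with a log2 fold change of -0.76 (adjusted p = 0.0302, edgeR quasi-likelihood test). This call too was lost without WT 1 or WT 2, in fits with replicate spread from the KO libraries alone. Irf1, which drives Psmb9 and Tap1, had 68.3 and 85.5 CPM in KO, against 58.6 and 60.1 CPM in WT, at 0.37 (adjusted p = 0.149). Higher Ifng in both KO libraries thus stood beside lower Psmb8 in both.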

How the data were processed

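Total RNA of 4 Th17 cultures, 1 per mouse, was sequenced on a BGISEQ platform, per the labels. RSEM 1.2.12, Bowtie2 2.2.5, HISAT2 2.0.4 and the build GRCm38.p6 are named in the submitters' processing notes. Not given in the sources used here are the library kit, the use of strand, the annotation and the read filters, so overlapping genes cannot be told apart. The authors deposited RSEM expected counts, not normalised, of which 69.4% were whole within 0.001. The authors also deposited TPM, used here for levels between genes, and FPKM, not used here, per the file headers.

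Expected counts were rounded, filtered with filterByExpr (minimum count 10, minimum total 15; 12680 genes kept, 5241 removed), scaled by TMM and tested for genotype in edgeR 4.0.16 (R 4.3.3) by the robust quasi-likelihood test, with Benjamini-Hochberg adjustment over all genes tested at 0.05. Intervals are 95% intervals of that fit. The procedure was tested on simulated data whose set changes were larger than that of any member. The simulation therefore does not show how often changes of the members' size are called. Alternatives were library size or DESeq2 size factors for scaling, no filter, DESeq2 1.42.0, limma 3.58.1 on log2(TPM + 1), a replicate block and each library left out. Members and gene lists were chosen with earlier results of these data known. Genes named with a fold change and test were the catalytic subunits, the activators, the chaperones, members past the threshold, the highest and lowest of each role, and preset genes of the related lists. Coordinates and promoters are from RefSeq (GRCm38.p6), which matched 17787 of 17921 gene IDs.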

Additional observations from a re-analysis of the deposited data

How the results depend on the processing

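The direction of the members' median log2 fold change and of the immunoproteasome ratio was kept under every alternative run for them. The median ran from 0.10 without KO 1 to 0.27 with library size alone, where the median of all genes was 0.12, against 0.02 with TMM. The number of members called higher, 1, depended on the test. It was 4 with library size alone (8.70% of members, against 14.1% of all genes), 5 in DESeq2 (10.9%, against 18.3%), 0 in limma on TPM (against 11.1%; 12 members at an unadjusted p under 0.05) and 0 to 24 when 1 library was left out. The last range ran from 0 without either WT library to 24 without KO 2, and such fits assume that the lone library of a group varies like the other group. Members called lower, 0, ranged from 0 to 3 in those fits, the 3 without KO 2 being Psmb8, Psmb9 and Psme4. Of all genes, 993 were higher in DESeq2, and 209 to 2881 higher and 450 to 3118 lower with 1 library left out.

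Same-numbered KO and WT mice share only a number, and the deviations of their libraries correlated at 0.198 over 2 pairs, so they were not taken as pairs. With the replicate block, 7 members were called higher (15.2%, against 23.1% of all genes called), and of all genes 1338 were higher and 1597 lower.

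Small estimates changed sign. With library size alone Psmd5 stood at 0.077, Psma5 at 0.069, Psma2 at 0.070 and Psmb11 at 0.0195. In limma on TPM they stood at 0.10, 0.067, 0.072 and 0.0098. With 1 library left out the values ran from -0.0092 to 0.25 for Psme1, -0.32 to 0.55 for Psmg3, -0.088 to 0.039 for Psmd5, -0.070 to 0.15 for Psmd4, -0.046 to 0.19 for Psmd8, -0.13 to 0.057 for Psma5, -0.030 to 0.066 for Psmb2, -0.24 to 0.088 for Psmb11 and -0.34 to 0.061 for Tap1. Other members changed sign in the same fits. Psmc1 ran from -0.075 to 0.35, Psmd12 from -0.13 to 0.34 and Psmd3 from -0.050 to 0.34. Psmd14 ran from -0.015 to 0.29, Psmb1 from -0.11 to 0.16 and Psma2 from -0.064 to 0.0012. The cause was not tested. Psma8 had too few counts to be tested.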

Other observations

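Ecpas, a scaffold that binds the proteasome, was named after its values were seen, because it held the lowest estimate among the proteasome partners. It had 123 and 93.2 CPM in KO, against 167 and 154 CPM in WT. Its log2 fold change was -0.57, KO over WT, with an adjusted p of 0.0767 in the edgeR quasi-likelihood test.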
